A study of Mus musculus with 8 samples.

Results

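The cartilage collagens are the genes that encode the collagen II, IX and XI chains of hyaline cartilage fibrils, together with the fibril-forming collagen XXVII. The 7 genes Col2a1, Col9a1, Col9a2, Col9a3, Col11a1, Col11a2 and Col27a1 were taken by symbol from the 50462 gene identifiers of the deposited table. All 7 were found and all 7 passed the filter on low counts. RNA sequencing had been carried out on medial knee cartilage of male wild-type C57BL/6J mice, with 1 library per mouse. The naive group held 4 mice that were left without surgery and sampled on day 0 at an age of 11 weeks. The DMM group held 4 mice in which the ligament anchoring the medial meniscus of the left knee was cut at 11 weeks, a procedure called destabilisation of the medial meniscus that models post-traumatic osteoarthritis. They were sampled on day 42 at an age of 17 weeks. Sham-operated mice were not analysed here, and surgery therefore cannot be told apart from the difference in age. The tissue was whole dissected cartilage, and in bulk samples fewer cells of a type and less RNA per cell cannot be told apart.

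Collagen II, the product of Col2a1, is the main fibril-forming collagen of hyaline cartilage. Collagen XI chains from Col11a1 and Col11a2 assemble with a product of Col2a1 and sit in the core of thin fibrils, where they limit fibril diameter. Collagen IX, built from Col9a1, Col9a2 and Col9a3 chains, is an interrupted-helix collagen bound to the fibril surface, and collagen XXVII, a short fibrillar collagen, is known in cartilage and the growth plate. The transcription factor Sox9 is the known activator of several of these genes.

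Start-site sequences from RefSeq (build GRCm38.p6) are shown because 3 of these genes, Col11a1, Col11a2 and Col27a1, were higher in DMM libraries and 1, Col9a1, was not called. The table held 6 promoters for 5 of the 7 members, each running from 250 bases before to 50 bases after the start. There was none for Col9a3 or for Col2a1, which was also higher in DMM libraries. Col9a1 had 2, and the second is not shown. The lines give the 200 bases before the start on the plus strand, 5′ to 3′, in lower case. A SOX core was taken as ACAATG, with ACAAAG as a variant, and as TCAATG, with TCAAAG as its variant. The GC box was searched as GGGCGG. For the TATA box, which is known from promoters with a fixed start site, the letters searched were TATAAA. Capitals mark a match to any of these on either strand, and no marked matches overlap.
Col11a1, chr3:114030340-114030539: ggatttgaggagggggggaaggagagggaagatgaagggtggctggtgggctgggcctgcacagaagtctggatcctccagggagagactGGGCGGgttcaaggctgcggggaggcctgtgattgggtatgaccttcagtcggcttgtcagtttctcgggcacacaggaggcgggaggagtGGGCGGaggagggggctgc
Col11a2, chr17:34038938-34039137: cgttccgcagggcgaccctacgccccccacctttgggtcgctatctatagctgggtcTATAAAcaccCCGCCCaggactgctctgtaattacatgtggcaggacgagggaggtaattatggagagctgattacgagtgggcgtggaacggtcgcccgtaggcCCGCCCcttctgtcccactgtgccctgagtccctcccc
Col27a1, chr4:63215212-63215411: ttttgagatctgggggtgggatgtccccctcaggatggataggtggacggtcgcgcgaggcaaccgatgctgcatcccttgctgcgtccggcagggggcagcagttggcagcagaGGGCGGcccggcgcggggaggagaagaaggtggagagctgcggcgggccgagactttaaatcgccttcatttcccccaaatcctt
Col9a1, chr1:24177410-24177609: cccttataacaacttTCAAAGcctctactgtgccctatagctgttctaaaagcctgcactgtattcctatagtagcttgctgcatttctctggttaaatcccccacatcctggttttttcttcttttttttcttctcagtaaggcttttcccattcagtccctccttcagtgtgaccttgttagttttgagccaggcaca
The 3 stretches of the genes that were higher held GC boxes and the Col9a1 stretch held none, but the promoter of Col9a2, which was also not called, held 3 GC boxes in its full window. In full windows, a GC box stood in 4 of the 6 member promoters and in 35.7% of all 32851 promoters of that length. A SOX core stood in 2 of the 6, against 44% of all promoters, and the TATA box in 1 of the 6, against 13.6%. That TATA box match, in Col11a2, began at position -143 relative to the start. The start used there lies upstream of the Col11a2 gene start in the annotation given below. The Col27a1 stretch lies inside the annotated span of the gene but outside its exons. These are matches of letters, and binding was not measured.

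The libraries held between 12479443 and 16548002 estimated counts. Naive replicate 2 stood apart, with 16770 genes at 10 or more counts against 18276 to 18467 in the other naive libraries. Marker calls below follow the rule given in the next paragraph, by which 7.38% of all 18707 genes tested were called higher and 5.63% lower. Chondrocyte markers took 0.361% to 0.944% of counts in naive and 0.595% to 0.789% in DMM libraries, with 3 of the 14 tested markers called higher and 1 lower. No chondrocyte marker was at 0 in every library, but Matn1, which encodes the cartilage matrix protein matrilin-1, reached at most 11.97 normalised counts. Osteoblast and osteocyte markers took between 0.140% and 0.208% in naive and between 0.342% and 0.613% in DMM libraries (9 of 10 called higher). Neutrophil lineage markers took between 0.887% and 1.24% in naive and between 0.418% and 0.878% in DMM libraries (10 of 10 called lower), and in both lists the groups did not overlap. Erythroid markers took 1.07% to 1.79% and 0.591% to 1.25%, with 6 of 7 tested called lower, and synovial and tendon fibroblast markers 0.0170% to 0.0274% and 0.0271% to 0.0495%, with 5 of 9 called higher. The osteoclast list (1 of 6 called higher), the endothelial list (2 higher and 1 lower of 6), and the macrophage, B cell and skeletal muscle lists (none called of 7, 6 and 2 tested) overlapped between groups. No marker of these lists was at 0 in every library, and the part of these cell types in the collagen values was not tested.

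The comparison of DMM with naive mice asks which cartilage transcripts differ after the joint is destabilised. The genes for collagens II, XI and XXVII were higher in DMM libraries, and the genes for collagen IX were not called. DESeq2 was used, and a call required an adjusted p (Benjamini-Hochberg) no higher than 0.05 together with at least a 1.5-fold change. On this rule 4 of the 7 members were called higher (57.1%) and none lower. Across the 18707 genes tested, 13.0% were called, 7.38% higher and 5.63% lower. The median log2 fold change was 0.77 over the members and -0.01 over all genes tested. When libraries were scaled by their total count the median of all genes moved to 0.14, and 80.7% of the genes called were higher, against 56.7% with median-of-ratios factors. The same 4 members were called under total-count scaling. All 4 had no overlap between the groups, which held with DMM higher for 11.5% of all genes tested.

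**Figure D1:**
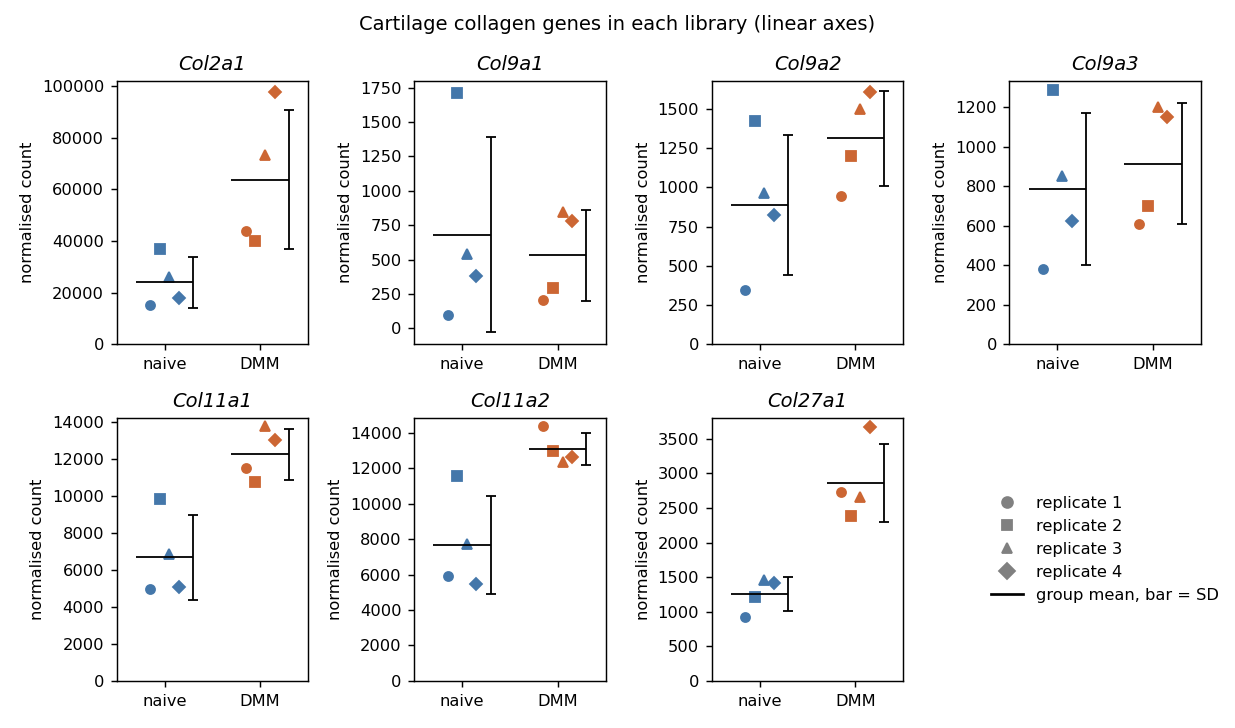
Normalised counts (DESeq2 size factors, linear axes) of each cartilage collagen gene in the 4 naive and 4 DMM libraries, with points for single libraries, lines for the mean and bars for the SD. Col2a1, Col11a1, Col11a2 and Col27a1 have every DMM library above every naive library, whereas the collagen IX genes overlap.

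Col2a1 (ENSMUSG00000022483, chromosome 15, 97975602 to 98004695, minus strand, GRCm38) encodes the chain of collagen II. Its normalised counts, which are estimated counts divided by a size factor for each library, were 15101, 36986, 25885 and 17945 in naive replicates 1 to 4. They were 43988, 40178, 73292 and 97825 in DMM replicates 1 to 4. The lowest DMM library exceeded the highest naive library, naive replicate 2, by a small margin, while DMM replicates 3 and 4 stood well above the rest. The mean rose from 23979 ± 9798 to 63821 ± 27069.9 (SD, n = 4 each), a log2 fold change of 1.41 (SE 0.42, 95% interval 0.58 to 2.24, DESeq2 adjusted p = 0.00738). By size of change it ranked 177 among the 1380 genes called higher.

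Col11a1 (ENSMUSG00000027966, chromosome 3, 114030540 to 114220718, plus strand) and Col11a2 (ENSMUSG00000024330, chromosome 17, 34039437 to 34066685, plus strand) encode collagen XI chains. For Col11a1 the normalised counts were 4993, 9872, 6844 and 5061 in naive replicates 1 to 4 and 11506, 10749.9, 13779 and 13056 in DMM replicates 1 to 4. For Col11a2 they were 5915, 11545, 7716 and 5472 in naive and 14372, 12979, 12337 and 12655 in DMM libraries. Both genes were highest among naive mice in replicate 2, and their DMM libraries lay close together. Col11a1 rose from 6693 ± 2286 to 12273 ± 1389 (SD, n = 4 each), a log2 fold change of 0.88 (SE 0.20, 95% interval 0.48 to 1.27, adjusted p = 0.000324). Col11a2 rose from 7662 ± 2765 to 13086 ± 897, a log2 fold change of 0.77 (SE 0.21, 95% interval 0.37 to 1.18, adjusted p = 0.00206). The CV between DMM mice was 6.85% for Col11a2 and 11.3% for Col11a1, against 42.4% for Col2a1.

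Col27a1 (ENSMUSG00000045672, chromosome 4, 63214004 to 63334991, plus strand) encodes collagen XXVII and hosts the microRNA gene Mir455. Its normalised counts were 921, 1215, 1454 and 1421 in naive replicates 1 to 4 and 2735, 2378, 2663 and 3669 in DMM replicates 1 to 4. No naive library came near the DMM range. The mean rose from 1253 ± 245 to 2861 ± 559.7 (SD, n = 4 each), a log2 fold change of 1.19 (SE 0.18, 95% interval 0.85 to 1.54). With a DESeq2 adjusted p of 3.5e-09 it had the smallest p of the 7 members, and its fitted dispersion of 0.0295 was the lowest.

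The collagen IX genes had wider intervals that included no change. Col9a2 (ENSMUSG00000028626, chromosome 4, 121039385 to 121055322, plus strand) had normalised counts of 344, 1421, 961 and 823 in naive replicates 1 to 4 and 942, 1200, 1497 and 1610.1 in DMM replicates 1 to 4. Col9a3 (ENSMUSG00000027570, chromosome 2, 180597790 to 180622189, plus strand) had 383, 1288, 849.8 and 624 in naive and 609.5, 699, 1199 and 1153 in DMM libraries. In both genes the groups overlapped, and naive replicate 2 was the highest naive library. The log2 fold change was 0.57 (SE 0.43, 95% interval -0.28 to 1.41, adjusted p = 0.396) for Col9a2. It was 0.22 (SE 0.43, 95% interval -0.62 to 1.06, adjusted p = 0.789) for Col9a3. Without naive replicate 2, Col9a2 passed the test at a log2 fold change of 0.89 (adjusted p = 0.0185). Col9a3 overlaps Tcfl5 on the opposite strand and shared 5.35% of its 31-base words with other genes, mainly that one, and whether the counting used strand is not stated.

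Col9a1 (ENSMUSG00000026147, chromosome 1, 24177610 to 24252684, plus strand), which encodes the remaining collagen IX chain, varied most between mice. Its normalised counts were 98.5, 1711, 540.5 and 378 in naive replicates 1 to 4 and 204, 292, 849 and 783 in DMM replicates 1 to 4. The naive values spanned 17.4-fold, from below every DMM library to above every DMM library. The naive mean was 682 ± 709.9 and the DMM mean 532 ± 331 (SD, n = 4 each). The log2 fold change was -0.36 (SE 0.87, 95% interval -2.07 to 1.35, adjusted p = 0.836), and without naive replicate 2 it was 0.65 (adjusted p = 0.643).

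**Figure D2:**
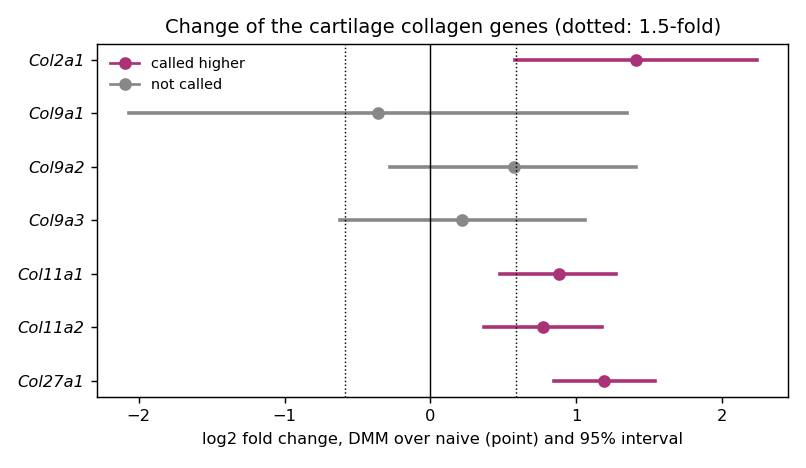
Log2 fold change of DMM over naive for the 7 cartilage collagen genes, as points with 95% intervals from DESeq2 and n = 4 libraries per group. The intervals of Col2a1, Col11a1, Col11a2 and Col27a1 lie above 0, and those of the 3 collagen IX genes include it.

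Within a group, most members deviated in the same direction in several libraries, measured from the group mean of log2 normalised counts. In naive replicate 3 all 7 members were above that log2 mean, and in naive replicate 1 none was. Naive replicate 2 was above the log2 mean for 6 members and naive replicate 4 for 2. In DMM replicates 1 to 4 the numbers of members above the log2 mean were 1, 0, 5 and 6. Col9a1 had the largest deviation in naive replicates 1 and 2, at -2.12 and 1.99 on the log2 scale. The 7 genes together took 0.195%, 0.381%, 0.308% and 0.220% of all estimated counts in naive replicates 1 to 4 and 0.553%, 0.510%, 0.775% and 0.997% in DMM replicates 1 to 4. The lowest DMM share exceeded the highest naive share. Col2a1 held most of these counts, from 17172 of 31562 in naive replicate 1 to 108391 of 144872 in DMM replicate 4. Such shares also depend on the total, of which the most abundant identifier took 10.1% to 17.9% in naive and 4.31% to 8.65% in DMM libraries.

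Levels were compared between genes only per length, as TPM, the estimated counts divided by the mean annotated transcript length and scaled to the same total in every library. Among the 7 genes Col2a1 stood highest, at 1457 ± 502 TPM among naive and 4273 ± 1829 TPM among DMM mice (SD, n = 4 each). It ranked 21 among all genes with this length, 50 with the longest transcript and 90 with merged exons. Col11a1 and Col11a2 followed, at 278 ± 75.1 and 240.2 ± 68.4 TPM in naive and 561 ± 53.2 and 454 ± 43.7 TPM in DMM libraries. In naive libraries the order of these neighbours is within their spread. In both groups it turns around with the longest transcript or the merged exons as length. With the longest transcript Col11a1 was at 295 and Col11a2 at 400 TPM in DMM libraries. Next came Col9a2 at 70.6 ± 31.8 TPM and Col9a3 at 54.9 ± 23.5 TPM in naive libraries, which also lay within each other's spread. Col9a1 and Col27a1 were lowest, at 33.9 ± 32.2 and 32.6 ± 8.32 TPM in naive libraries. Without naive replicate 2 the Col9a1 level was 18.6 ± 12.5 TPM (SD, n = 3), below Col27a1 at 34.1 ± 9.497 TPM. In DMM libraries Col27a1, at 80.3 ± 17.2 TPM, stood above Col9a1, at 29.8 ± 18.0 TPM, and near Col9a3, at 70.3 ± 22.1 TPM. Col2a1 made up 67.1% ± 1.07 of the TPM of the 7 genes in naive and 75.0% ± 6.13 in DMM libraries. The collagen I genes, which are not members, stood above Col2a1 in both groups. Col1a1 was at 8516 ± 1980 TPM in naive and 22062 ± 3501 TPM in DMM libraries, and Col1a2 at 4051 ± 829 and 10394 ± 1420 TPM.

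**Figure D3:**
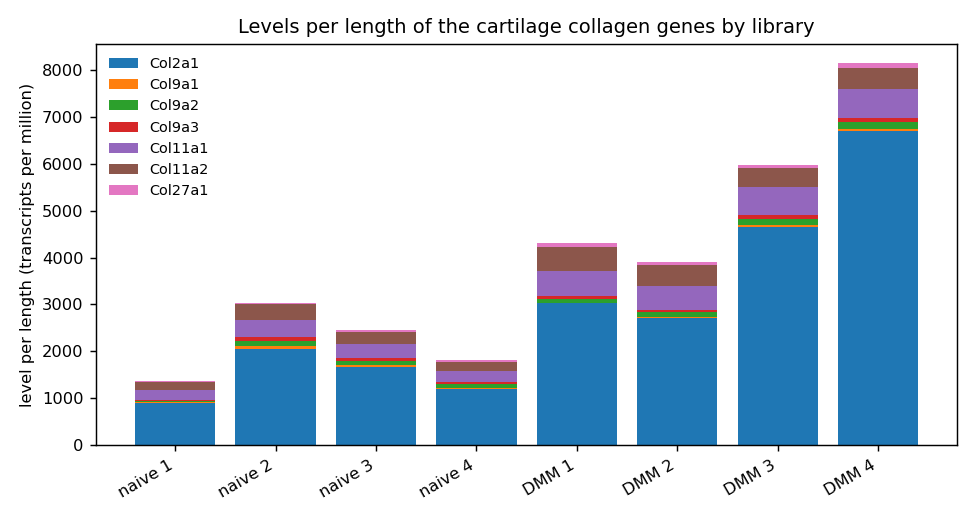
Level per length (TPM, linear axis from 0) of the 7 cartilage collagen genes, stacked in 1 bar for each of the 8 libraries and coloured by gene. Col2a1 makes up the largest segment of every bar, between 65.9% and 68.4% in naive and between 69.5% and 82.3% in DMM libraries.

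Within collagen IX, Col9a1 made up 17.7% ± 9.08 of the 3 chains per length among naive mice and 12.9% ± 4.75 among DMM mice (SD, n = 4 each). Col9a2 made up 45.6% ± 5.03 and 54.5% ± 5.57, and Col9a3 36.7% ± 6.15 and 32.7% ± 1.44. The Col9a1 share ran from 8.55% in naive replicate 1 to 30.2% in naive replicate 2, and without the latter the naive mean was 13.5% ± 4.42 (SD, n = 3), close to that of the DMM mice. Col9a2 was the largest of the 3 shares in each of the 8 libraries with this length.

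Ratios within a library do not depend on the scaling between libraries, and 12 ratios of collagen genes were compared by a two-sided exact permutation test over 70 assignments, which cannot give a p below 0.0286. At that smallest p, 1 ratio alone cannot pass 0.05 after Benjamini-Hochberg adjustment over the 12 ratios. The adjusted values therefore cannot decide on a single ratio. After adjustment 0 ratios passed 0.05, and 1 passed unadjusted, the ratio of Col9a3 to Col2a1. This ratio was 0.0253, 0.0348, 0.0328 and 0.0348 in naive replicates 1 to 4 and 0.0139, 0.0174, 0.0164 and 0.0118 in DMM replicates 1 to 4. Each DMM mouse lay below each naive mouse. The log2 ratio was -4.98 ± 0.22 among naive and -6.09 ± 0.25 among DMM mice (SD, n = 4 each), a difference of -1.11 (exact permutation p = 0.0286, adjusted p = 0.343).

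The other collagen IX chains also had lower ratios to Col2a1 in DMM libraries on average, but with overlap. The difference in log2 ratio was -0.70 for Col9a2 (exact permutation p = 0.0571, adjusted p = 0.343) and -1.35 for Col9a1 (exact permutation p = 0.114, adjusted p = 0.343). Between the chains that assemble in fibrils, the log2 ratio to Col2a1 differed by -0.48 for Col11a1 (exact p = 0.0857, adjusted p = 0.343), by -0.57 for Col11a2 (exact p = 0.286, adjusted p = 0.49) and by -0.21 for Col27a1 (exact p = 0.629, adjusted p = 0.717). These values for collagens XI and XXVII did not pass the test, and their DMM libraries split, with lower ratios for Col11a1 and Col11a2 in replicates 3 and 4, where Col2a1 was highest. The ratio of Col11a1 to Col11a2 was between 0.844 and 0.925 in naive and between 0.801 and 1.12 in DMM libraries, a log2 difference of 0.09 (exact p = 0.486, adjusted p = 0.648).

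**Figure D4:**
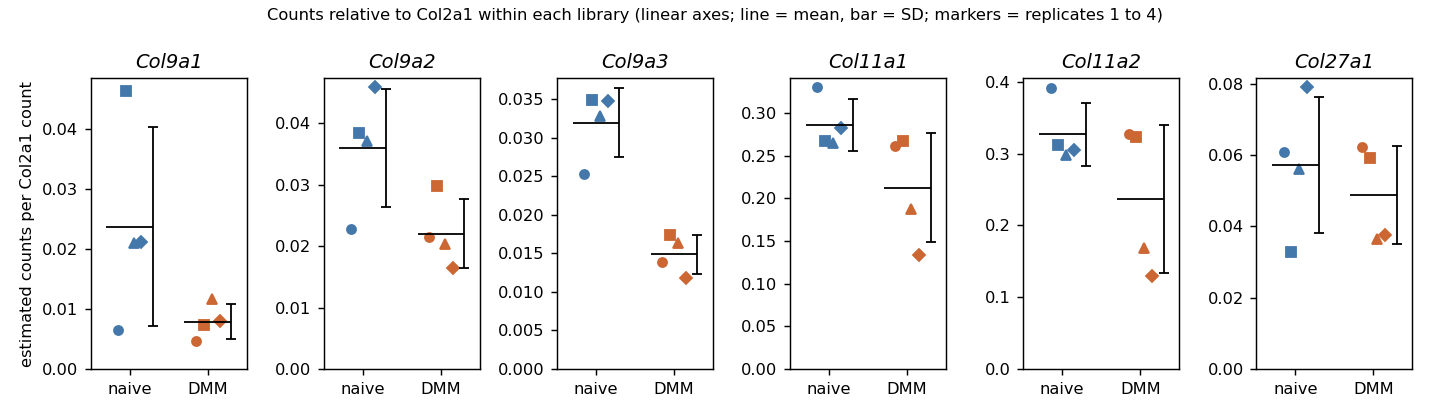
Ratio of the counts of each other cartilage collagen gene to those of Col2a1 (linear axes from 0) in each naive and DMM library, with points for libraries, lines for the mean and bars for the SD. The Col9a3 ratio is lower in all 4 DMM libraries, between 0.0118 and 0.0174, than in the naive libraries, between 0.0253 and 0.0348.

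Collagen I, III and V genes were also higher in DMM libraries, so the cartilage collagens were set against them. Of the 7 other fibril-forming collagen genes, all 7 were called higher with a median log2 fold change of 1.23, and 6 of 7 without naive replicate 2. The share called higher over all genes tested was 7.38%. Col1a1, which encodes the main chain of bone and fibrous tissue collagen I, had a log2 fold change of 1.23 (adjusted p = 4.77e-08), and its partner Col1a2 1.22. Col3a1, the collagen III gene of extensible tissues, had 2.02, and Col5a1 and Col5a2, whose collagen V is related to collagen XI, had 1.48 and 1.34. Col24a1 had 1.20, and Col5a3 had 0.88 with overlapping groups (DESeq2 adjusted p = 0.016, edgeR adjusted p = 0.0706). The Col5a3 call was lost without any of naive replicates 1 to 3 or DMM replicates 1 to 3 (DESeq2 adjusted p between 0.0638 and 0.209).

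The ratio of Col2a1 to Col1a1 lay between 0.139 and 0.193 in naive and between 0.115 and 0.366 in DMM libraries, a log2 difference of 0.14 (exact p = 0.8, adjusted p = 0.8). DMM replicates 1 and 2 were below the naive range and replicates 3 and 4 above it. The log2 ratio of Col2a1 to Col3a1 differed by -0.66 (exact p = 0.343, adjusted p = 0.514) and that of Col11a1 to Col5a1 by -0.59 (exact p = 0.171, adjusted p = 0.411).

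Measured against the summed chondrocyte markers, Col27a1 was the only member without overlap between groups, with a log2 ratio 1.07 higher in DMM libraries (exact permutation p = 0.0286, adjusted p = 0.2 over 7 ratios). The Col2a1 difference was 1.28 with overlap (exact p = 0.0857, adjusted p = 0.3), that of Col11a1 0.80 (exact p = 0.143) and that of Col11a2 0.71 (exact p = 0.229). For Col9a1, Col9a2 and Col9a3 the differences were -0.07, 0.58 and 0.17. The sum was dominated by Prg4, the lubricin gene of the superficial zone, which made up between 50.1% and 71.2% of it in naive and between 27.2% and 48.8% in DMM libraries. Among the remaining markers Comp and Acan had the highest mean normalised counts in DMM libraries (21121 and 14809). Both were themselves called higher and stood in both sums. Prg4 normalised counts spanned 3.19-fold among naive libraries, so neither sum is a stable reference. With Prg4 left out of the sum the Col27a1 difference was 0.52, still without overlap (exact permutation p = 0.0286, adjusted p = 0.2). The others overlapped, at 0.73 for Col2a1, 0.25 for Col11a1, 0.16 for Col11a2, -0.62 for Col9a1, 0.03 for Col9a2 and -0.38 for Col9a3. At the smallest exact p, 1 ratio alone among 7 cannot adjust below 0.2, so the adjusted values cannot decide on a single ratio. Both sets of ratios were chosen after the data were seen.

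Genes that act on collagen chains were described by role, and their counts stand beside 7.38% called higher and 5.63% lower over all genes tested. Of 6 transcription regulators of cartilage collagen genes, 1 was called higher, Sox9, with 839 ± 53.1 normalised counts (SD, n = 4) among naive and 1764 ± 459 among DMM mice (log2 fold change 1.07, adjusted p = 5.64e-07). Sox5 (0.34, adjusted p = 0.259), Wwp2 (0.35, adjusted p = 0.059) and Nkx3-2 (0.81, adjusted p = 0.0959) were not called, and Arid5b (0.34, adjusted p = 0.0363) did not reach the fold threshold. Sox6, a partner factor of Sox9, had a log2 fold change of -0.57 with an adjusted p of 0.00585, which is short of the 1.5-fold threshold. Its DMM libraries, between 960 and 1574, lay below its naive libraries, between 1578 and 2047. Sox6 passed the threshold as lower without DMM replicate 3 (-0.72), naive replicate 3 (-0.63) or naive replicate 4 (-0.64). Over all fits leaving out 1 library it lay between -0.72 and -0.47. Among naive libraries Sox6 and the erythroid marker share were both highest in replicate 2 and lowest in replicate 4. Among DMM libraries both were highest in replicate 3 and lowest in replicate 2. The part of erythroid cells in the Sox6 value was not tested.

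Of 20 genes of procollagen folding and hydroxylation, 8 were called higher and none lower, with a median of 0.55, against 7.38% higher over all genes tested. Fkbp10, a prolyl isomerase of the endoplasmic reticulum, had a log2 fold change of 0.91 (adjusted p = 2.65e-13) and P3h4, a component of the lysyl hydroxylation complex, 1.26. Plod2, a telopeptide lysyl hydroxylase, had 1.08 and P4ha3, a prolyl 4-hydroxylase subunit, had 1.83. Of the 12 genes of procollagen processing and crosslinking tested out of 13, 10 were called higher and none lower, with a median of 0.83. They included the N-propeptidase gene Adamts2 (0.87), the C-propeptidase gene Bmp1 (0.76), its enhancer Pcolce (1.24) and the lysyl oxidase family gene Loxl3 (0.90).

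Of the 17 cartilage fibril partners tested out of 18, 11 were called higher and none lower, with a median of 1.09. Over all genes tested, 7.38% were called higher. The 6 partners not called were Hapln1 (0.79), Snorc (0.57), Chad (0.40), Epyc (-0.25), Matn3 (-0.29) and Ucma (-0.58). Fmod, the fibril-binding proteoglycan fibromodulin, had the lowest adjusted p (5.58e-21) at a log2 fold change of 2.08. Comp, which binds collagens II and IX, had 1.35, Acan, the gene of aggrecan, 1.09 and Dcn, a collagen-binding proteoglycan, 1.30. Of 7 collagen receptors, 3 were called higher and none lower. Itga11 had 1.20, Ddr2 0.76 and Ddr1 0.67, while Itga10, the collagen II-binding integrin of chondrocytes, had 0.58 (adjusted p = 0.000451), just short of the fold threshold. It was called by edgeR (0.60) and limma-voom (0.59) and with TMM factors (0.61), each of which called 4 receptors, whereas Ddr1 was not called without DMM replicate 2 (0.55) or without naive replicate 1 (0.58). Itgb1 (0.28), Itga1 (0.25) and Itga2 (0.06) were not called. Of the 6 collagen-degrading proteases tested out of 8, 3 were called higher and none lower. The collagen II-cleaving Mmp13 had 0.91, Mmp14 0.92 and the gelatinase Mmp2 1.80.

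**Figure D5:**
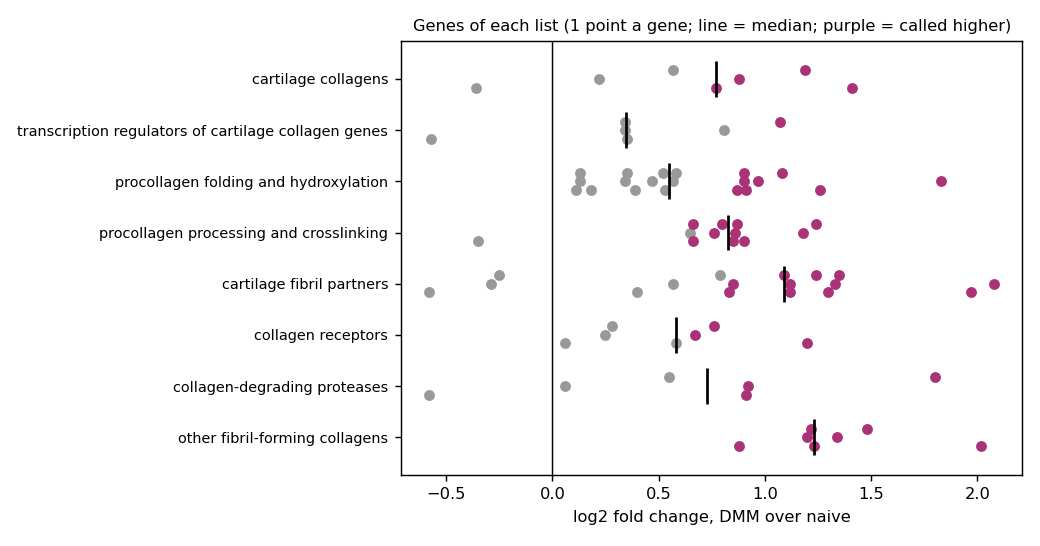
Log2 fold changes of DMM over naive for the genes of each role list, with 1 point a gene, a line at the median, purple for genes called higher and grey for genes not called. The 7 other fibril-forming collagens are all called higher, and in the cartilage collagen list 4 of 7 are.

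The 5 genes whose pattern across the 8 libraries was nearest to that of Col2a1, by root mean square distance of centred log2 normalised counts among 11031 genes with a mean of at least 100, were Prkg2 (0.260), Pla2g5 (0.304), Nid2 (0.305), Smpd3 (0.309) and Aldh1l2 (0.320). This distance includes the difference between naive and DMM libraries. The fold changes and calls of the 5 genes therefore follow from how they were chosen and are given as description only. Prkg2 encodes a cGMP-dependent kinase and had a log2 fold change of 1.75, which was 1.16 without DMM replicate 4 and lost its call without naive replicate 1 (1.59, DESeq2 adjusted p = 0.0549). Pla2g5 encodes a secreted phospholipase (1.76), Nid2 a basement membrane nidogen (1.23), Smpd3 a neutral sphingomyelinase (1.28) and Aldh1l2 a mitochondrial folate enzyme (1.17). Among the members, Col11a1 was nearest to Col2a1 at a distance of 0.386, followed by Col27a1 at 0.427, Col9a2 at 0.489, Col11a2 at 0.514 and Col9a3 at 0.591. Col9a1 was farthest, at 1.03.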

How the data were processed

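Gene expression was measured in 4 naive and 4 DMM libraries of medial knee cartilage. The authors trimmed reads with Trimmomatic, pseudo-aligned them with Kallisto and summed transcripts to genes with Tximport. The deposited values are estimated counts per gene, of which 39% of values are not whole, and they were rounded before testing. The methods of the study name GRCm38, the labels list GRCh38 and the identifiers are mouse, which leaves the build uncertain. For library preparation the labels give an NEB low input kit and the methods a SMART-Seq kit with depletion of ribosomal RNA. Symbols were found for 48855 of 50462 identifiers, and coordinates are from GENCODE vM21 (GRCm38). Lengths for TPM came from that annotation.

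DESeq2 (version 1.42.0, R 4.3.3) was fitted to all genes (median-of-ratios factors, Wald test, default independent filtering, unshrunken fold changes, no covariates, all 8 libraries), and p-values were adjusted by Benjamini-Hochberg over the genes tested. Alternatives used edgeR version 4.0.16 and limma version 3.58.1. The methods of the study name DESeq2. Single values were compared with two-sided exact permutation tests over 70 assignments. Libraries came from separate mice, and no pair agreed within counting noise. Named genes were all 7 members, up to 4 called genes with the smallest adjusted p per role list, every gene of lists of 7 or fewer, the genes of the 12 ratios and the 5 genes nearest to Col2a1. Fibril partners that were tested but not called are named as well. Members and lists were chosen with earlier results of these data known. The script was tested on simulated counts with 200 genes changed 2-fold. DESeq2 recovered 170 of them with 18 false calls, and edgeR recovered 159 with 6 false calls.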

Additional observations from a re-analysis of the deposited data

Results flagged for a closer look

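Of 124 groups of 4 libraries tested for a library far from the others, 5 had one, and chance gives about 6.2. The Sox9 value of naive replicate 3 was 918.6 normalised counts against 805.4 to 816.8 in the other naive libraries. Pla2g5 was at 47.49 normalised counts in naive replicate 1 against 81.34 to 83.9 in the others. The ratio of Col11a2 to Col2a1 was 0.3917 in naive replicate 1 against 0.2981 to 0.3121. Naive replicate 2 had 16770 genes at 10 or more counts against 18276 to 18467. Dcn was at 23655.4 normalised counts in DMM replicate 3 against 12855.4 to 13894.8. None of the 7 cartilage collagen genes had a library that stood apart by this measure.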

How the results depend on the processing

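The calls of Col2a1, Col11a1, Col11a2 and Col27a1 held with edgeR (adjusted p = 0.019, 0.016, 0.025 and 0.0036), limma-voom, TMM factors, total-count scaling and with each library left out in turn. Against a null of 1.5-fold, 88 of all genes, 0 members and 8 role list genes were called, and without a fold threshold 3975 of all genes. Leaving out single libraries gave 1851 to 2855 called genes, 4 to 5 called members, 39 to 49 called role list genes and 0 to 0 ratios past the adjusted threshold, which 3 against 4 libraries cannot reach since the smallest p is 0.0571. The share of Col2a1 among the 7 genes per length was 60.5% in naive with the longest transcript and 52.2% in naive and 62.4% in DMM libraries with merged exons. The sign turned for Col9a1 under limma-voom (0.15) and the replicate block (0.19), and when libraries were left out (-0.72 to 0.65). It turned likewise for Col9a3 (-0.0073 to 0.57), Itga2 (-0.0086 to 0.14), the log2 ratio of Col2a1 to Col1a1 (-0.052 as a difference of medians, -0.19 to 0.37 with libraries left out) and that of Col9a1 to Col9a3 (-0.65 to 0.14). Naive replicate 2 set the upper Col9a1 value and DMM replicate 4 the lower Col2a1 to Col1a1 value. The cause was not tested. The log2 difference in the ratio of Col9a3 to Col2a1 lay between -1.216 and -1.003 when single libraries were left out. The difference of Col9a3 to the chondrocyte sum turned to -0.38 without Prg4. Under total-count scaling 13 of the folding and hydroxylation genes were called higher, against 8. Replicate numbers did not pair the mice (correlations 0.05, 0.06, -0.12 and 0.12 for numbers 1 to 4), and not every mouse correlated best with its own number. The replicate block gave 2079 called genes and 1 further member, Col9a2 (0.71, adjusted p = 0.0272), and it also called Sox6 lower (-0.59, adjusted p = 0.0205) and lost Col5a3 (adjusted p = 0.187). Depth was lowest for Col9a1, with 112 estimated counts in its lowest library.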

Other observations

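Of the 15 chondrocyte markers, 2, Matn3 and Epyc, had their highest and lowest library of each group where Col9a1 did, which was noticed after the values were seen. Naive replicate 2 was the highest naive library for 5 of the 15 markers and the lowest for 5. Matn3, which encodes matrilin-3, had normalised counts of 18.5, 329.9, 86.7 and 77.1 in naive replicates 1 to 4 and 24.9, 73.1, 200.9 and 119 in DMM replicates 1 to 4. Epyc, which encodes the proteoglycan epiphycan, had 1.76, 45.2, 11.8 and 9.07 in naive and 1.66, 8.6, 28.8 and 17.0 in DMM libraries. In both, as in Col9a1, naive replicate 2 and DMM replicate 3 were highest and replicate 1 of each group was lowest. Matn1 had 3.52, 11.97, 3.21 and 2.27 in naive and 1.66, 1.08, 0.823 and 0 in DMM libraries, and shares with Col9a1 only its highest naive library.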
